A study of Homo sapiens with 4 samples.

Results

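Small nucleolar RNAs (snoRNAs) and small Cajal body RNAs (scaRNAs) that were expressed in cells labelled HepG2 are described here. HepG2 is an established human liver cancer cell line. The genes were chosen by symbol and by level: an entry named SNORD, SNORA, SCARNA or snoU that is no host gene was a member if its FPKM was 1 or more in at least 2 of 4 RNA-seq libraries. FPKM counts fragments per kilobase of transcript, scaled to the mapped fragments of the library, so it is a level per length. Of 1314 such entries among 57768 genes in the files, 90 were members. They comprised 12 of 865 C/D box entries (SNORD and snoU), 65 of 399 H/ACA box entries (SNORA) and 13 of 50 scaRNA entries.

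Of the 4 libraries, 2 came from WT cells and 2 from cells labelled C/EBPβ enh-/-. The latter lack the enhancer of the transcription factor gene C/EBPβ on both alleles, which CRISPR/Cas9 removed. No drug or other agent is labelled for either genotype. The sources used here do not state whether the enh-/- cells are 1 clone or whether the libraries of a genotype came from separate cultures, so the spread between them may be technical. Of 20 genes typical of liver cells, 18 had an FPKM below 1 in all 4 libraries, albumin (ALB) among them, which goes against the label HepG2, and the libraries are named here by their labels. The fragments estimated from the spacing of low values numbered about 38700000 and 43200000 in WT libraries 1 and 2, and about 21800000 and 47800000 in enh-/- libraries 1 and 2. These depths are approximate. CEBPB itself was at 30.6 and 19.2 FPKM in WT and at 12.4 and 11.8 in enh-/- libraries 1 and 2 (limma, adjusted p = 0.125), so both enh-/- values were below both WT values and the difference did not pass the threshold of 0.05.

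snoRNAs are short RNAs of the nucleolus that guide chemical modification of other RNAs by base pairing. C/D box snoRNAs guide ribose methylation by fibrillarin (FBL), H/ACA box snoRNAs guide pseudouridylation by dyskerin (DKC1), and a few, such as U3, take part in cutting the ribosomal RNA precursor. scaRNAs carry the same boxes, reside in Cajal bodies and guide modification of the small nuclear RNAs of the spliceosome. Most human snoRNAs are cut out of introns of host genes, many of which encode ribosomal proteins or are long non-coding RNAs.

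The sequences of 6 members past or near the threshold, and of 2 relatives for comparison, are given as read from GRCh37. They run 5′ to 3′ on the annotated strand and show the boxes and how the relatives compare. They lie at chr9:97934777-97934880 (snoU13, minus strand), chr2:10586840-10586975 (SNORA80B, minus), chr21:33749496-33749631 (SNORA80, minus), chr7:56128163-56128295 (SNORA15, plus), chr4:74129677-74129801 and chr11:8705774-8705903 (the 2 SNORA3 entries, plus), chr7:45143948-45144081 (SNORA5A, minus) and chr7:45144505-45144641 (SNORA5C, minus). Capitals mark the C box (TGATGA) and the D box (CTGA) in snoU13, and in the others the ACA triplet that lies 3 bases before the 3′ end.
snoU13: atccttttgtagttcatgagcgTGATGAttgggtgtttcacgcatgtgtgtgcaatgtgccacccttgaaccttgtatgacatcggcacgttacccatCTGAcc
SNORA80B: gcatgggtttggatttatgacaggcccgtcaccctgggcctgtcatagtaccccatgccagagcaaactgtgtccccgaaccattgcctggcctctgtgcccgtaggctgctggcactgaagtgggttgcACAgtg
SNORA80: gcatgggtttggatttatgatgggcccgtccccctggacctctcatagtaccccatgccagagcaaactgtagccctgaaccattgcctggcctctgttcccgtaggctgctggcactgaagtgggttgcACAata
SNORA15: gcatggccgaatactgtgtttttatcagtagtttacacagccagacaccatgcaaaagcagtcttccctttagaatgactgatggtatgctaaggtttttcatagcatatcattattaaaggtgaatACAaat
SNORA3 ENSG00000221639: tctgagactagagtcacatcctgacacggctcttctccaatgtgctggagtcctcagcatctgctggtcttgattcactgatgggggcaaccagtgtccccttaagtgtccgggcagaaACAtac
SNORA3 ENSG00000200983: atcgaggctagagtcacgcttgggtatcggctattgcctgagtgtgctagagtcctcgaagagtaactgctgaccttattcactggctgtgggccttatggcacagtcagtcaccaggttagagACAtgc
SNORA5A: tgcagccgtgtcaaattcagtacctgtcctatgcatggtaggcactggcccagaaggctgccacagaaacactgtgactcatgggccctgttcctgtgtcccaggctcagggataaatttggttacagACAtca
SNORA5C: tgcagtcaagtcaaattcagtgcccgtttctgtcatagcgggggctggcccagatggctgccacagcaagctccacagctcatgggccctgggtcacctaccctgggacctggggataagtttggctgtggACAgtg

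On the annotated strand, ACA lay exactly 3 bases before the 3′ end in 48 of the 65 H/ACA members (73.8%), in 60.4% of all 399 H/ACA entries and in 0.752% of windows of the same length placed 500 bases upstream of those entries. SNORA67, which is among the called members, had no ACA at that place. Among C/D members, 5 of 12 held TGATGA within the first 30 bases together with CTGA within the last 15, against 42.3% of all 865 C/D entries and 0 of the 865 upstream windows. The 4 U3 entries, which are annotated as 581 to 791 nt long, SNORD64 and SNORD97 held neither, and SNORD10 held the D box alone. These matches describe the annotated ends only.

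Entries below a certain annotated length had no level. None of the 516 snoRNA and scaRNA entries of up to 100 nt was above 0 in any library, and neither was any of 3489 other genes of that length. As 480 of the 865 C/D entries (55.5%) are that short, against 31 H/ACA and 5 scaRNA entries, most C/D snoRNAs had no value to compare. Above 100 nt, 16 of 385 C/D entries (4.16%), 98 of 368 H/ACA entries (26.6%) and 16 of 45 scaRNA entries (35.6%) were above 0 in at least 1 library. Of those C/D entries, 353 were of 101 to 110 nt, and 4 of the 353 were above 0. Only 11 H/ACA entries were of that length, with 0 above 0. At 131 to 140 nt, 2 of 6 C/D and 59 of 175 H/ACA entries were above 0. The shares above 100 nt thus do not compare the classes at equal length. The members' annotated lengths ran from 104 to 791 nt, with a median of 191.5 nt for C/D, 135 nt for H/ACA and 166 nt for scaRNA members. A 0 in a short entry therefore does not show that the snoRNA was missing from the cells.

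**Figure D1:**
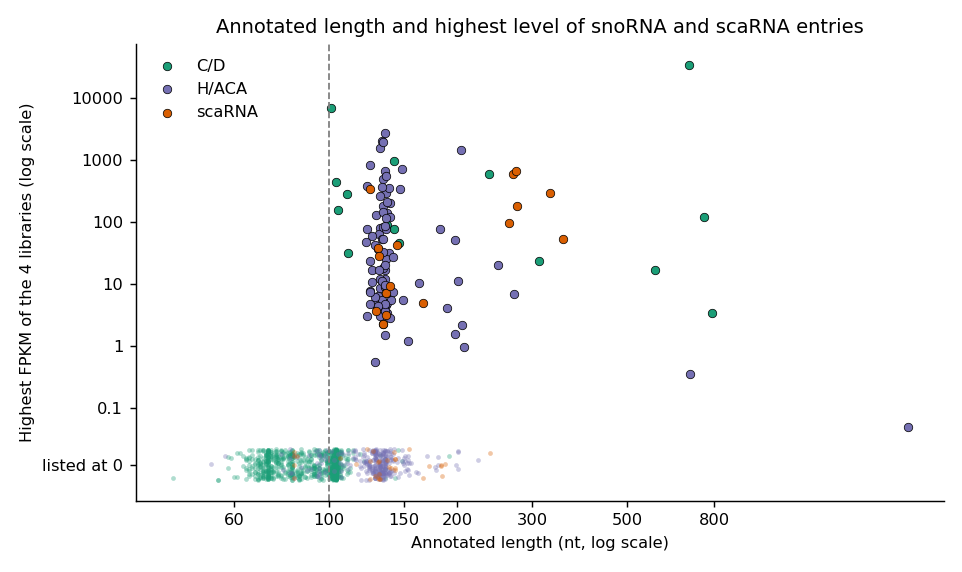
Highest FPKM of the 4 libraries (log scale) against annotated length (log scale) for 1314 entries, coloured by class, with entries at 0 in every library as a jittered strip at the bottom. The dashed line marks 100 nt, and no entry at or below it was above 0.

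Just above that length, values were either high or listed at 0. snoU13 ENSG00000239146 (101 nt) was at 6971 FPKM in enh-/- library 1 and listed at 0 in the other 3 libraries. snoU13 ENSG00000238815 (105 nt) was at 154 FPKM in WT library 1 alone, and SNORD67 (111 nt) at 32.2 FPKM in WT library 2 alone. None of these 3 was a member, since each was above 0 in 1 library. Of 464 entries named snoU13, the gene family of U13, 3 were above 0 in any library and 1 was a member. Among entries of 101 to 110 nt, the lowest value above 0 was 105 FPKM, whereas it was 0.635 FPKM among those of 131 to 140 nt. No low level was thus listed for the shortest entries that had any.

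The 90 members reached the level in unequal ways. An FPKM of 1 or more was found in all 4 libraries for 58 members, in 3 libraries for 15 and in 2 libraries for 17. Of those 17, 6 passed through both WT libraries only (snoU13, SNORA3 ENSG00000221639, SNORA15, SNORA67, SCARNA21 and SCARNA11), 0 through both enh-/- libraries only, and 11 through 1 library of each genotype. These 6 had to differ between genotypes, and their values are given as a description. The members nearest to the limit were SCARNA21, whose second highest value was 1.04 FPKM, and SNORA73 ENSG00000199977, at 1.20 FPKM. The entries just outside were SNORA46, at 0.707 FPKM, and SCARNA18, at 0.635 FPKM.

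Exact zeros were spread over all libraries. Of the 90 members, 61 were above 0 in all 4 libraries (10 C/D, 42 H/ACA and 9 scaRNA) and 29 were listed at 0 in at least 1. WT libraries 1 and 2 listed 9 and 5 members at 0, and enh-/- libraries 1 and 2 listed 17 and 11. The estimated depth of enh-/- library 1, which had the most zeros, was the lowest of the 4, and its part in the zeros was not tested. Within WT, 14 members were at 0 in 1 library and above 0 in the other, and 4 of these were at 10 FPKM or more in the other. Within enh-/-, 18 members were at 0 in 1 library alone, 10 of which were at 10 FPKM or more in the other. The widest gap was in SNORD8, a C/D snoRNA in CHD8, at 105 and 0 FPKM in the WT libraries and 284 and 0 FPKM in the enh-/- libraries. No member was at 0 in both WT libraries, and 5 were at 0 in both enh-/- libraries. RN7SK, an RNA that every cell uses, was listed at 0 in all 4 libraries, so a 0 in these files can be a level that was not estimated.

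Members held 9.78% and 4.29% of the total FPKM in WT libraries 1 and 2, and 7.14% and 5.22% in enh-/- libraries 1 and 2. In every library but WT library 2, more of this came from SNORD3A than from all other members. SNORD3A encodes U3, the C/D snoRNA required for the first cuts of the ribosomal RNA precursor. SNORD3A was at 35052 and 5408 FPKM in the WT libraries and at 24232 and 12988 FPKM in the enh-/- libraries, so both enh-/- values lay between the WT values. The WT libraries differed 6.48-fold and the enh-/- libraries 1.87-fold. The means were 20230 ± 20961 (SD, n = 2) and 18610 ± 7951 (SD, n = 2) FPKM, and the log2 fold change was 0.37 with a standard error of 0.79 (limma, adjusted p = 0.830). Without WT library 2 the log2 fold change was -0.98, and without enh-/- library 1 it was -0.08. Without SNORD3A, members held 3.36% and 3.28% of the WT totals and 3.19% and 2.53% of the enh-/- totals, in which enh-/- library 2 was the lowest.

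The other U3 copies were far lower. SNORD3B-1 was at 21.4, 119, 16.2 and 43.8 FPKM in WT libraries 1 and 2 and enh-/- libraries 1 and 2, and was high in those libraries where SNORD3A was low. SNORD3C was at 13.6 and 16.7 FPKM in WT and at 7.24 and 10.9 in enh-/- libraries, and SNORD3B-2 stayed between 1.53 and 3.42 FPKM. All 4 copies lie on chromosome 17 and share 69.5% to 92.9% of their 50-base windows with another copy, so the split of fragments among them is uncertain. SNORD3A held 97.5% to 99.9% of their summed FPKM in each library. Altogether 14 of the 90 members shared a 50-base window with another annotated snoRNA, 4 of them C/D, 10 H/ACA and none scaRNA.

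Among the other C/D members, SNORD10 had the highest mean FPKM, followed by SNORD17, snoU13 and SNORD8. SNORD10, inside EIF4A1, was at 956 and 821 FPKM in WT and 936 and 533 FPKM in enh-/- libraries, and the genotypes overlapped. SNORD17, in SNX5, was at 596 and 508 FPKM in WT and 430 and 380 FPKM in enh-/- libraries, both below both WT values (log2 fold change -0.44, standard error 0.21, limma adjusted p = 0.282). SNORD10 was above SNORD17 in each of the 4 libraries, although their ranges overlapped across libraries. SNORD94, SNORD97 and SNORD15B lay between 16.5 and 89.4 FPKM, and in each the genotypes overlapped.

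The highest H/ACA members were of 1 order of magnitude. SNORA48, also in EIF4A1, was at 2188 and 2720 FPKM in WT and at 2093 and 1729 FPKM in enh-/- libraries. SNORA68 was at 1744 and 1443 FPKM in WT and at 2079 and 1068 FPKM in enh-/- libraries. SNORA71A, in SNHG17, was at 1615 and 1473 FPKM in WT and at 1987 and 1238 FPKM in enh-/- libraries, so that for both genes the enh-/- libraries lay on either side of WT. SNORA73B (U17), which takes part in cutting the ribosomal RNA precursor, was at 1463 and 1357 FPKM in WT and at 1327 and 807 FPKM in enh-/- libraries (log2 fold change -0.44, SE 0.27, limma adjusted p = 0.396). SNORA63 ENSG00000200320, in EIF4A2, completed the highest 5, at 1352 and 1042 FPKM in WT and 1582 and 842 FPKM in enh-/- libraries. Each of the 5 was lower in enh-/- library 2 than in the other 3 libraries, and SNORA48 was the highest of them in every library.

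Among scaRNAs, SCARNA13 (544 and 542 FPKM in WT, 683 and 444 FPKM in enh-/- libraries) and SCARNA12 (609 and 584 FPKM, then 555 and 434 FPKM) were the highest. SCARNA7, in KPNA4, was at 270 and 294 FPKM in WT and at 281 and 212 FPKM in enh-/- libraries. SCARNA22, in NSD2, was at 226 and 243 FPKM in WT and at 338 and 163 FPKM in enh-/- libraries, and its log2 fold change was 0.00. In these 4 scaRNAs enh-/- library 2 was the lowest. The WT libraries were less alike in the lowest scaRNAs, such as SCARNA21 at 9.16 and 1.04 FPKM and SCARNA23 at 0 and 11.8 FPKM. SCARNA5 and SCARNA6, which carry both kinds of box and share the host ATG16L1, had unlike values: SCARNA5 was at 180 and 181 FPKM in WT and 184 and 108 FPKM in enh-/- libraries, and SCARNA6 at 96.6 and 97.0 FPKM in WT and 65.1 and 42.3 FPKM in enh-/- libraries. The log2 fold change of SCARNA6 was -0.87 (SE 0.26, limma adjusted p = 0.136), which did not pass the threshold.

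**Figure D2:**
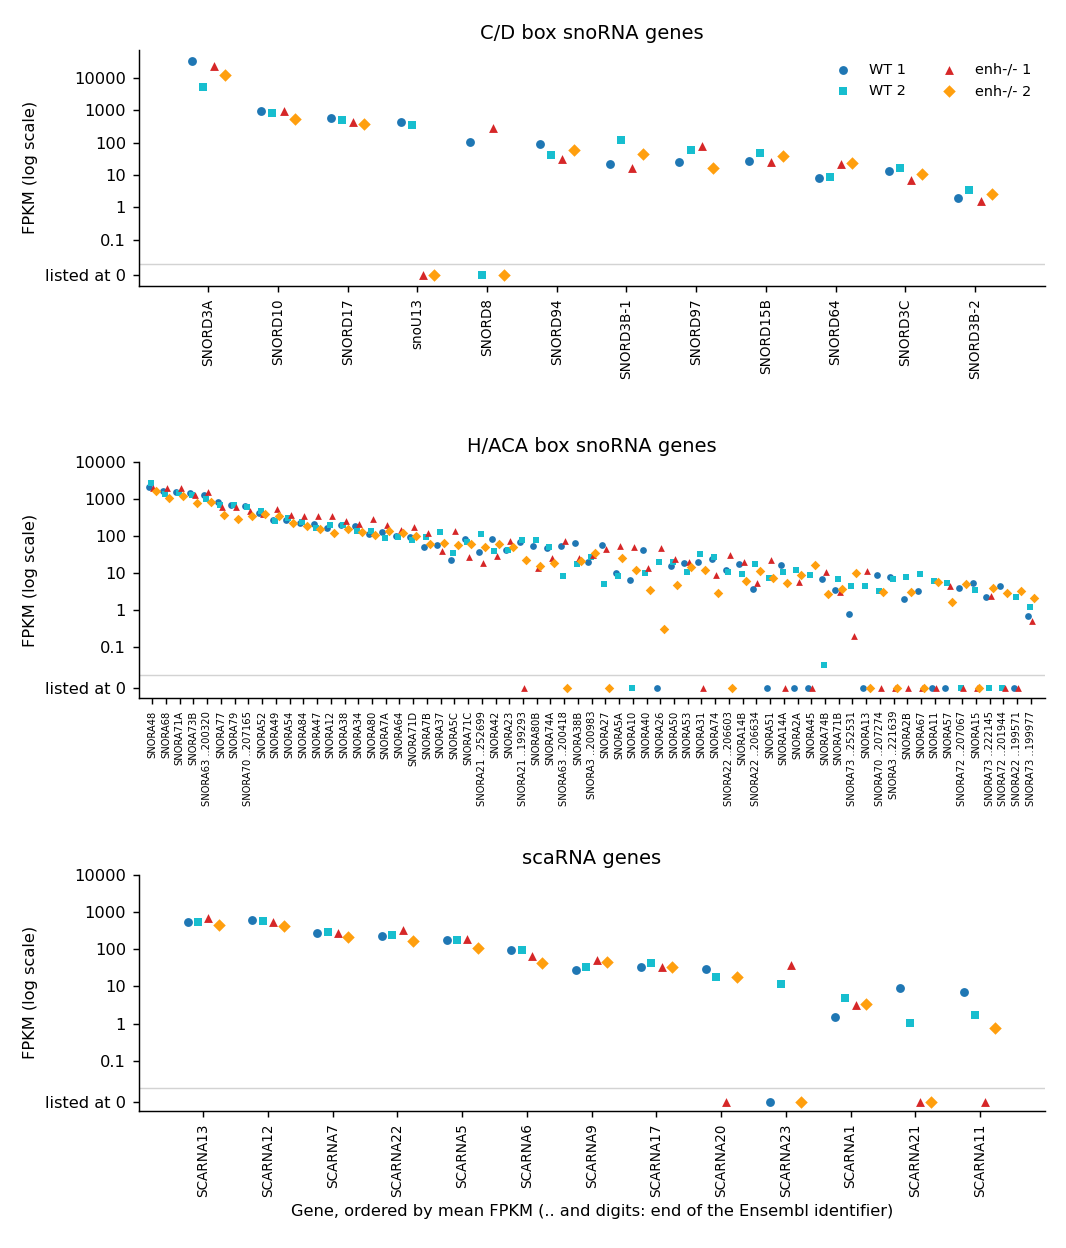
FPKM (log scale) of the 90 members in each of the 4 libraries, by class and ordered by mean FPKM, with values listed at 0 below the grey line. Zeros appear in all 4 libraries, and enh-/- library 2 is the lowest for each of the 5 highest H/ACA members.

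To ask whether enhancer deletion went with a change in these genes, limma was fitted to log2(FPKM + 1) of the 12491 genes whose mean FPKM reached 1, and p was adjusted over all of them by Benjamini-Hochberg. Fold changes on this scale understate the change of low genes. All 90 members were tested. An adjusted p under 0.05 was reached by 5 lower members, against 1.21% of all tested genes, and by 1 higher member, against 0.248% of all tested genes. Nothing is read from the count of lower members, since 4 of the 5 were members through both WT libraries only and had to be lower. By class these were 1 lower and 1 higher of 12 C/D members, 4 lower and 0 higher of 65 H/ACA members, and 0 of 13 scaRNA members (3 lower and 1 higher at an unadjusted p under 0.05). At an unadjusted p under 0.05 there were 11 lower and 5 higher H/ACA members, beside 16.9% lower and 3.86% higher of all tested genes. Among members lower at that p, SNORA3 ENSG00000221639, SNORA15, SNORA67 and the scaRNAs SCARNA21 and SCARNA11 passed through both WT libraries only. These had to be lower, so nothing is read from the unadjusted counts of lower members either. Without the 6 members that had passed through both WT libraries only, 1 lower and 1 higher member remained, SNORA80B and SNORD64. For a single gene, the smallest p of a two-sided exact permutation test is 0.333 in this design.

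SNORA80B (ENSG00000206633) is an H/ACA snoRNA in ODC1, the gene of ornithine decarboxylase, the first enzyme of polyamine synthesis. It was at 55.3 and 77.9 FPKM in WT libraries 1 and 2 and at 14.3 and 16.1 FPKM in enh-/- libraries 1 and 2. Both enh-/- values were far below both WT values and close to each other. The means were 66.6 ± 15.9 (SD, n = 2) and 15.2 ± 1.27 (SD, n = 2) FPKM, and the log2 fold change was -2.05 with a standard error of 0.25 (limma, adjusted p = 0.0208). The adjusted p of limma was 0.0833 and 0.190 without WT libraries 1 and 2, and 0.173 and 0.0942 without enh-/- libraries 1 and 2, so no fit with 3 libraries passed. Over all 12 alternatives it ran from 0.0103 to 0.242 and passed in 7. ODC1 moved the same way, from 81.0 and 98.7 FPKM in WT to 38.0 and 30.04 FPKM in enh-/- libraries (log2 fold change -1.38, limma adjusted p = 0.0484), and was the 1 host gene past the threshold. No host was called without the trend, without a filter on low values, with rescaling, centring or the replicate block, or without any 1 library. The fall of ODC1 was smaller than that of SNORA80B on the log2 scale. The relative SNORA80, in URB1, has 91.9% sequence identity to SNORA80B and was at 114 and 137 FPKM in WT and 291 and 110 FPKM in enh-/- libraries, with overlapping genotypes. No 50-base window of SNORA80B occurs in another annotated snoRNA.

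SNORD64 (ENSG00000270704, chromosome 15 from 25230011 to 25230320, plus strand) lies in SNHG14, the long non-coding host RNA of an imprinted snoRNA cluster. Its entry spans 310 nt, has the gene type sense_intronic and holds neither box at its ends, so it is counted as C/D by its symbol alone. The other SNORD64 entry, ENSG00000212161 of 67 nt, was listed at 0 in all 4 libraries. The 310 nt entry was at 7.86 and 8.45 FPKM in WT and at 22.5 and 23.4 FPKM in enh-/- libraries, 8.16 ± 0.413 against 22.9 ± 0.666 (SD, n = 2). The genotypes were far apart and the libraries of each nearly equal. The log2 fold change was 1.39 with a standard error of 0.21 (limma, adjusted p = 0.0334). The adjusted p of limma was 0.275 and 0.232 without WT libraries 1 and 2, and 0.186 and 0.109 without enh-/- libraries 1 and 2. Over all 12 alternatives it ran from 0.0216 to 0.275 and passed in 5. After scaling each library to 1 common total, SNORD64 was not called either, and 4 lower and 0 higher members were, beside 61 lower and 23 higher of all 12491 genes. SNHG14 was at 20.2 and 19.4 FPKM in WT and at 30.9 and 42.2 FPKM in enh-/- libraries (log2 fold change 0.84, adjusted p = 0.123 from limma).

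The other 4 called members were listed at 0 in both enh-/- libraries, so no fold change is given for them, and the fitted size depends on the pseudocount. snoU13 (ENSG00000238746), inside FANCC, was at 444 and 346 FPKM in WT, while FANCC was at 6.24 and 5.25 FPKM in WT and 7.81 and 7.42 in enh-/- libraries. This snoU13 entry is 104 nt long, in the range of 101 to 110 nt where values were either high or listed at 0. Its zeros therefore do not show that the RNA was missing from enh-/- cells. SNORA3 ENSG00000221639, in ANKRD17-DT, was at 7.76 and 6.86 FPKM in WT. The other SNORA3 entry, in RPL27A and 64.6% identical to it, was at 20.04 and 27.9 FPKM in WT and 32.5 and 36.5 FPKM in enh-/- libraries, both above both WT values. SNORA15, in CCT6A, was at 5.58 and 3.49 FPKM in WT. SNORA67 (chromosome 2 from 39510798 to 39510932, minus strand), in MAP4K3, was at 3.43 and 9.53 FPKM in WT. These 4 were members through their WT values alone, so how members were chosen fixed the direction, and no test is given. SNORA15 shares 77.4% of its 50-base windows with other snoRNA entries, so its level is uncertain.

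Several members lay near the threshold. SNORA5A and SNORA5C, neighbours in TBRG4 and 67.9% identical, were both higher in enh-/- libraries. SNORA5A was at 10.2 and 8.56 FPKM in WT and at 54.1 and 26.1 FPKM in enh-/- libraries (log2 fold change 1.90, SE 0.35, limma adjusted p = 0.0572). SNORA5C was at 23.5 and 34.9 FPKM in WT and at 138 and 58.5 FPKM in enh-/- libraries (log2 fold change 1.62, SE 0.42, limma adjusted p = 0.105). Both were higher in enh-/- library 1 than in library 2. TBRG4 itself was at 67.6 and 87.9 FPKM in WT and 69.2 and 64.9 FPKM in enh-/- libraries, with overlapping genotypes. On chromosome 5, SNORA74A was at 48.4 and 52.0 FPKM in WT and at 26.4 and 19.1 FPKM in enh-/- libraries (log2 fold change -1.12, SE 0.24, limma adjusted p = 0.0738). The related SNORA74 was at 24.2 and 27.0 FPKM in WT and at 9.21 and 3.01 FPKM in enh-/- libraries (adjusted p = 0.0698 from limma). None of these 4 passed, although in each the genotypes did not overlap. SNORA5A passed in 3 of 12 alternatives, the replicate block among them, with a limma adjusted p from 0.0323 to 0.315. SNORA74 passed in 1, without genes listed at 0, with a limma adjusted p from 0.0423 to 0.361.

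**Figure D3:**
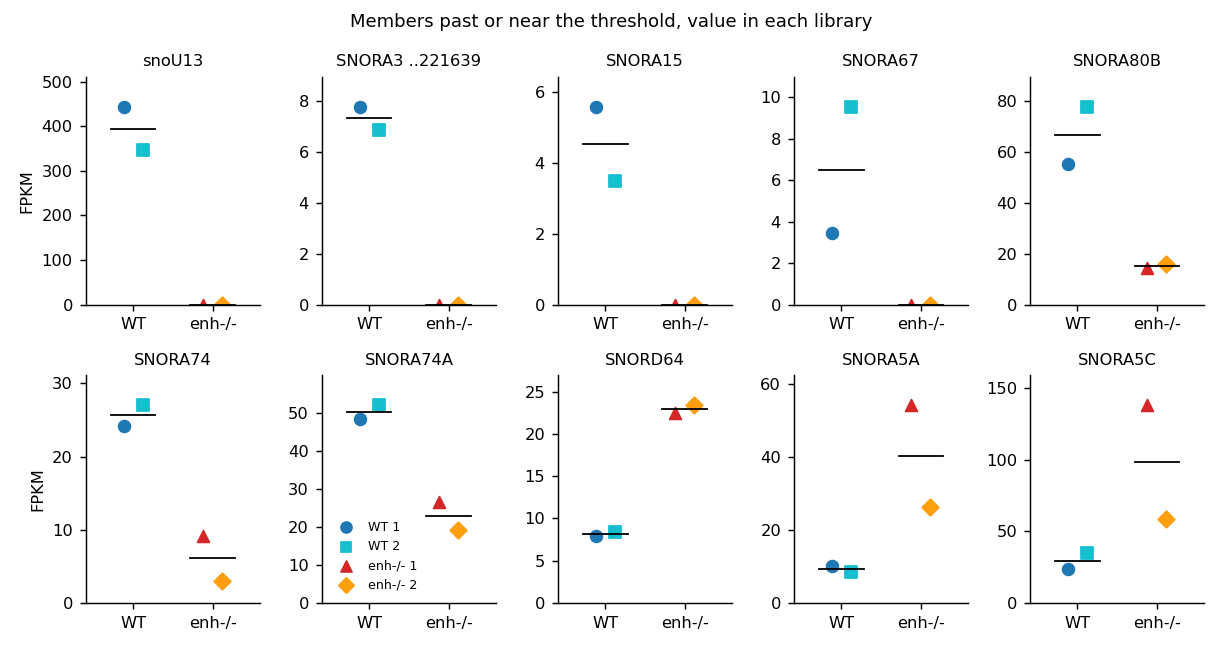
FPKM of 10 members past or near the threshold in each library, with a bar at each genotype's mean (n = 2). snoU13, SNORA3 ENSG00000221639, SNORA15 and SNORA67 are at 0 in both enh-/- libraries, and SNORD64, SNORA5A and SNORA5C lie higher in both.

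Among H/ACA members above 0 in all 4 libraries, SNORA79, SNORA49 and SNORA7A also had separate genotypes. SNORA79, in CCNB1IP1, was at 719 and 716 FPKM in WT and at 624 and 294 FPKM in enh-/- libraries. SNORA49, in EP400, was at 284 and 269 FPKM in WT and at 567 and 349 FPKM in enh-/- libraries. SNORA7A, in RPL32, was at 135 and 89.5 FPKM in WT and at 203 and 138 FPKM in enh-/- libraries, and it is 98.6% identical to SNORA7B, so their fragments may be split between them. None of the 3 passed, with adjusted p from 0.221 to 0.298 in limma. SNORA21 ENSG00000199293, SNORA31 and SNORA14A had separate genotypes with a 0 in enh-/- library 1, for example 69.4 and 80.9 FPKM in WT against 0 and 23.5 FPKM for SNORA21 ENSG00000199293, and did not pass. SNORA10 and SNORA64, both in RPS2, were above WT in both enh-/- libraries: SNORA10 was at 6.43 and 0 FPKM in WT and 52.9 and 12.6 FPKM in enh-/- libraries, and SNORA64 at 104 and 98.1 FPKM in WT and 148 and 121 FPKM in enh-/- libraries. RPS2 was below WT in both (log2 fold change -0.39, adjusted p = 0.312 from limma). SNORA10 shares 73.8% of its 50-base windows with another entry named SNORA64, while the member SNORA64 in RPS2 shares 0 of its 85 windows with any other entry. SNORA10 and the member SNORA64 were chosen for this description after their values were seen.

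By class, the members did not move together. The median log2 fold change was -0.29 over 12 C/D members, -0.04 over 65 H/ACA members and -0.21 over 13 scaRNA members, beside -0.14 over all tested genes. Centring each library on its own median raised all genes alike, to medians of -0.12, 0.13, -0.03 and 0.03, so medians this close to 0 have no sign of their own. Among members above 0 in all 4 libraries, the medians were -0.29, -0.01 and -0.17. Both enh-/- libraries were below both WT libraries in 3 C/D, 17 H/ACA and 5 scaRNA members, 25 of the 90, while this held for 37.5% of all tested genes. Both were above in 1, 10 and 1 members, 12 of the 90, against 15.1% of all tested genes. Without the 6 members that passed through WT only, 19 of 84 (22.6%) were lower and 12 of 84 (14.3%) higher. As those 6 were taken out for being lower, these shares are not compared with those of all genes.

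The spread within a genotype was wider for these genes than for others. The median SD of log2(FPKM + 1) between libraries of a genotype was 0.45 for C/D, 0.68 for H/ACA and 0.38 for scaRNA members, and 0.23 for all tested genes. Among members with a mean FPKM of at least 50 it was 0.43 for 27 H/ACA members and 0.22 for all 1356 tested genes of that level. At that level it was 0.71 for 7 C/D members, zeros included, and 0.31 for 6 scaRNA members. Higher levels thus did not bring H/ACA members to the spread of other genes. Those genes were not matched for length, and the part of length was not tested.

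For H/ACA members, the enh-/- libraries differed more than the WT libraries. Over the 42 H/ACA members above 0 in all 4 libraries, enh-/- library 2 was lower than library 1 for 31, with a median difference of -0.67 in log2(FPKM + 1). Between WT libraries 2 and 1 the median difference was -0.03, and 22 were lower. Over all tested genes the same medians were -0.09 and 0.01. As a result the direction against WT depended on the enh-/- library used. enh-/- library 1 gave medians of 0.21 and 0.36 against WT libraries 1 and 2, and enh-/- library 2 gave -0.33 and -0.33. Over all 65 H/ACA members, the median log2 fold change was -0.32 without enh-/- library 1 and 0.37 without enh-/- library 2. The difference between genotypes was thus smaller than that between the enh-/- libraries, which also differed in estimated depth, whose part in this was not tested. The 9 scaRNA members above 0 in all 4 libraries went the same way, with a median of -0.40 between enh-/- libraries 2 and 1 and 0.11 between WT libraries 2 and 1. The 10 such C/D members had medians of 0.29 and 0.19, and 4 of them were lower in enh-/- library 2 than in library 1. SNORD3A, SNORD10 and SNORD17 were among those lower. The U3 copies SNORD3B-1, SNORD3B-2 and SNORD3C, which share windows with SNORD3A, were among those higher. Over the 7 C/D members with a mean FPKM of at least 50, zeros included, the same medians were -0.18 and -0.36. No contrast between classes is drawn from this.

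**Figure D4:**
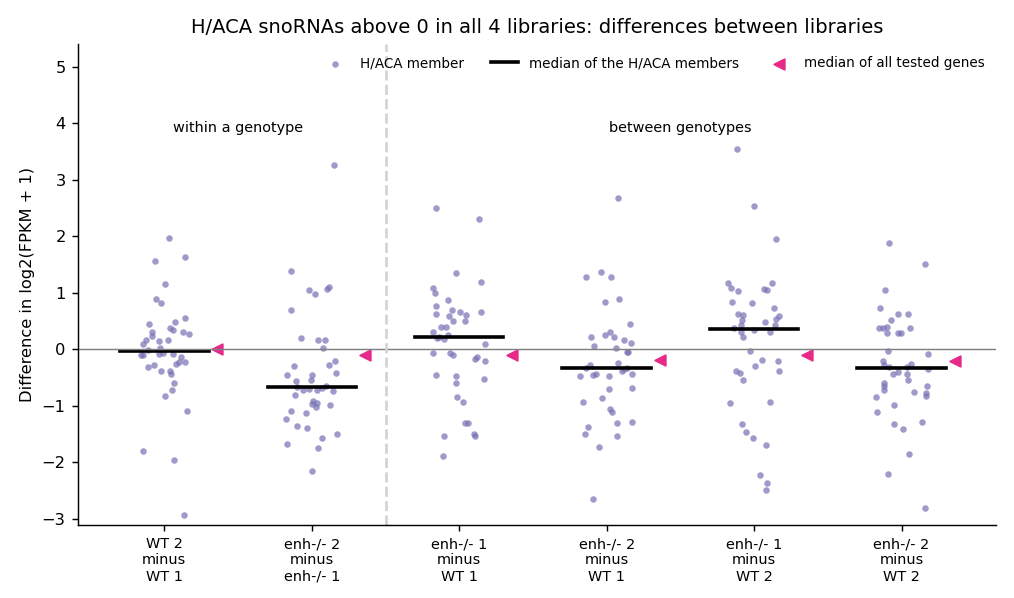
Difference in log2(FPKM + 1) between libraries for the 42 H/ACA members above 0 in all 4, each pair of libraries in a column, with the median of the members as a black bar and that of all tested genes as a pink mark. The median between the enh-/- libraries is -0.67, and the medians against WT are above 0 for enh-/- library 1 and below 0 for enh-/- library 2.

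Host genes were compared with the members inside them, because most human snoRNAs are cut out of introns of host genes. Whether each member here is made from its host was not tested. A host here is a gene of another class on the same strand whose span holds the whole member. Of the 90 members, 81 had a host, 68 hosts in all, of which 64 could be tested and hold 77 members. Of the 64 hosts, limma called 1 lower (ODC1) and 0 higher, beside 1.21% and 0.248% of all tested genes. At an unadjusted p under 0.05 there were 19 lower and 1 higher, beside 16.9% and 3.86% of all tested genes. Both enh-/- libraries were below both WT libraries in 35 hosts and above in 7, beside 37.5% and 15.1% of all tested genes. The median log2 fold change of the hosts was -0.23. Of 11 ribosomal protein hosts, 9 were below WT in both enh-/- libraries, beside the same 37.5%, with a median of -0.46 and 0 called (6 lower and 0 higher at an unadjusted p under 0.05). All 11 had a mean FPKM of at least 50. Of all 1356 tested genes at that level, 619 were below WT in both, with a median of -0.23. At an unadjusted p under 0.05 in limma, 303 of those genes were lower and 44 higher. RPL10 went from 1112 and 1228 FPKM in WT to 469 and 651 FPKM in enh-/- libraries (log2 fold change -1.08, limma adjusted p = 0.0750), and its SNORA70 ENSG00000207165 from 669 and 626 FPKM to 482 and 352 FPKM. RPL32 was also below WT in both, with a log2 fold change of -0.46, while that of SNORA7A in it was 0.60.

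Across the 53 members above 0 in all 4 libraries with a tested host, the log2 fold changes of member and host had a Pearson correlation of 0.54 and a Spearman correlation of 0.47. This correlation is across genes of the same 4 libraries, several members share a host, and a member's fragments lie within the span of its host, so it is given as a description. Without SNORA80B, Pearson's correlation was 0.48 over 52 members, and over all 77 members, zeros included, it was 0.21. The sign of the 2 fold changes was the same for 33 of the 53. The level of a member told little of that of its host: over the 77 members the correlation of the log2 mean FPKM was 0.13, and 35 members were above their host. How the deposited values divide fragments between a host and a snoRNA inside it is not given in the sources used here.

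**Figure D5:**
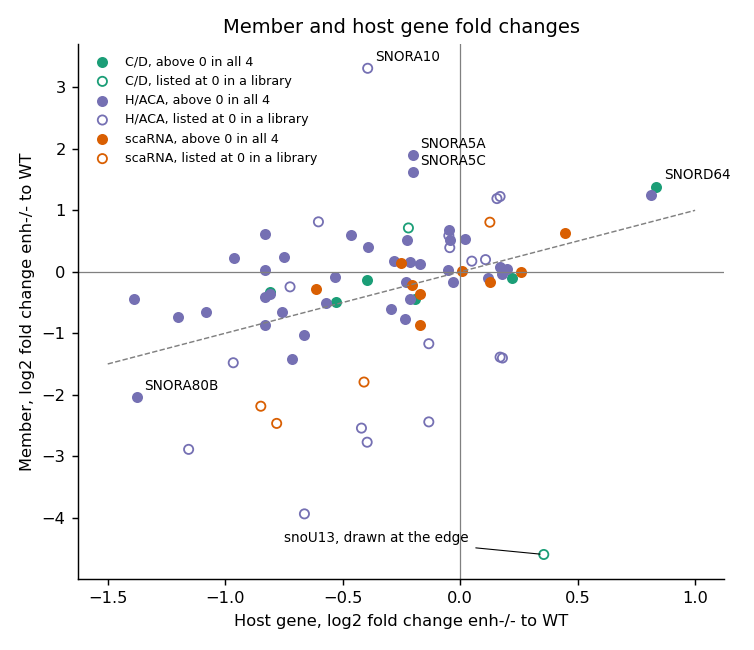
Log2 fold change of a member (y axis) against that of its host gene (x axis), with open symbols for members listed at 0 in a library and a dashed line of equal change. SNORA80B is low together with ODC1 and SNORD64 high together with SNHG14, SNORA5A and SNORA5C lie high above their host TBRG4, and snoU13 is drawn at the lower edge because its fitted value lies beyond the axis.

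SNHG17, a long non-coding host RNA, was at 41.8 and 15.5 FPKM in WT and at 14.4 and 13.5 FPKM in enh-/- libraries, so its WT libraries differed more than the genotypes. Its 4 members had log2 fold changes of 0.02 (SNORA71A), 0.62 (SNORA71D), -0.41 (SNORA71B) and -0.87 (SNORA71C). SNORA71D lay above both WT values, at 99.3 and 80.1 FPKM in WT against 182 and 104 FPKM in enh-/- libraries, and SNORA71C lay below both, at 84.2 and 71.8 FPKM in WT against 28.3 and 62.2 FPKM. Neither passed the threshold (adjusted p = 0.303 and 0.241 from limma). SNORA71A, SNORA71C and SNORA71D are 82.1% to 85.8% identical. The differences among these members were not tested. In EIF4A1, SNORA48 and SNORD10 had log2 fold changes of -0.36 and -0.33 and the host -0.81.

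Last, the protein genes of snoRNA particles were examined as the machinery that these RNAs need. Of 22 genes listed, 20 matched a symbol and were tested, and limma called 0 in either direction (7 lower and 0 higher at an unadjusted p under 0.05, beside 16.9% and 3.86% of all tested genes). Both enh-/- libraries were below both WT libraries in 10 and above in 1, beside 37.5% and 15.1% of all tested genes, and the median log2 fold change was -0.38. Of the C/D core proteins, FBL was at 33.6 and 38.8 FPKM in WT and at 25.3 and 24.7 in enh-/- libraries (log2 fold change -0.51, adjusted p = 0.233 from limma), and SNU13 and NOP58 were also below WT in both enh-/- libraries, with log2 fold changes of -0.65 and -0.54 (limma, adjusted p = 0.151 and 0.227). NOP56, the fourth, overlapped between genotypes (log2 fold change 0.15). Of the H/ACA core, the pseudouridine synthase DKC1 was at 53.4 and 48.6 FPKM in WT and at 38.3 and 36.7 FPKM in enh-/- libraries (log2 fold change -0.43, adjusted p = 0.289 from limma), and NOP10 was below WT in both as well (log2 fold change -0.33, limma adjusted p = 0.437), whereas GAR1 and NHP2 overlapped. NOLC1, a chaperone of snoRNA particles in the nucleolus and Cajal body, was at 68.0 and 63.6 FPKM in WT and at 36.3 and 39.9 FPKM in enh-/- libraries (log2 fold change -0.77, adjusted p = 0.112 from limma). The assembly factor NUFIP1 was at 4.21 and 3.47 FPKM in WT and at 1.63 and 1.76 FPKM in enh-/- libraries (adjusted p = 0.128 from limma), while NAF1, which acts in H/ACA assembly, was the 1 gene above WT in both, at 4.54 and 3.5003 FPKM against 6.23 and 5.47 FPKM (adjusted p = 0.322 from limma).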

How the data were processed

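The 4 RNA-seq libraries (2 per genotype) were grouped and numbered by their labels. The authors deposited FPKM, 1 value per gene and library. The submitters' processing notes name hg19, TopHat2 2.0.13 and Cufflinks, with no role or setting. Whether libraries were scaled to each other, and whether counting used strand, is not given in the sources used here. The labels' extract protocol describes chromatin isolation besides an RNA-seq library. When the depth was estimated from the steps between low values, 53.2% to 59.7% of them came within 10% of a whole fragment, so no counts were recovered, and the precision is limited by 2 libraries a genotype.

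Of 57815 entries, 57768 remained without chromosome Y pseudoautosomal copies, and 55535 matched a symbol. Coordinates and sequences came from GRCh37 with GENCODE annotation lifted to it, and 84 of the 90 members had the same annotation version as in the files. No entry was left out as a host gene. Values were tested as log2(FPKM + 1) with limma 3.58.1 in R 4.3.3 (eBayes with a trend, two-sided), with samtools 1.23.1, Python 3.11.15, pandas 2.3.3 and matplotlib 3.10.9 for the rest, and the fit was tested on simulated data. Identity was 1 minus the edit distance over the longer length.

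The members and lists were chosen with earlier results of these data known. Named genes are the 5 highest of each class, called members, the 5 largest separated rises and falls of C/D and H/ACA among members above 0 in all 4 libraries, members at 0 in both libraries of a genotype, snoRNAs of ribosomal RNA processing, the scaRNAs SCARNA5, SCARNA6 and SCARNA7, and snoRNA protein genes. SNORA10, SNORA14A, SNORA21, SNORA31, SNORA64, SNORA70, SNORD94, SNORD97, SNORD15B, SCARNA11, SCARNA23, the entries at the limit of membership and the relatives SNORA80, SNORA7B, SNORA71B and SNORA3 ENSG00000200983 were named outside this rule, with their values seen. The replicate numbers come from the labels alone. Alternatives were a fit with no trend, pseudocount 0.1, either no filter or a minimum mean FPKM of 5, rescaling, centring, the replicate block, leaving out genes at 0 or each library, and stricter membership. Leaving out the members that passed through WT only was added after seeing the data.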

Additional observations from a re-analysis of the deposited data

How the results depend on the processing

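The number of called members depended on the fit. Without a filter 0 C/D members were called lower, 0 higher, and 0 H/ACA members lower, as limma then called 0 of all 30754 genes in either direction. The higher C/D call was lost with rescaling to the same total (0) and the replicate block (0), and the lower one without genes listed at 0 (0), among members at 1 or more in all 4 libraries (0) and without those that passed through WT only (0). H/ACA members called lower numbered 1 with a mean FPKM of at least 5 (130 lower and 20 higher of all 8539 genes), 2 without genes listed at 0 (324 and 47 of 12379), 1 among members at 1 or more in all 4, 2 among those at 5 or more and 1 without those that passed through WT only. Those called higher numbered 1, 1 and 2 with a mean FPKM of at least 5, without genes listed at 0 and with the replicate block. Leaving out 1 library gave 0 to 3 H/ACA members lower, 0 C/D members higher and 0 to 1 scaRNA members lower (1 without enh-/- replicate 2). The C/D median of -0.29 was -0.34 with a pseudocount of 0.1, -0.33 with a mean FPKM of at least 5 and among members at 5 or more, -0.12 with centring and -0.25 without those that passed through WT only. Leaving out 1 library moved it from -0.50 to -0.32, the H/ACA median from -0.32 to 0.37 and the scaRNA median from -0.46 to -0.0069. Hosts called lower numbered 0 without the trend, without a filter, with rescaling, centring or the replicate block, and without any 1 library, 2 with a pseudocount of 0.1, and 3 with a mean FPKM of at least 5 or without genes listed at 0. No snoRNA protein gene was called in any fit. The cause of these shifts was not tested.

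The labels name no batch for same-numbered libraries, and whether they shared one is not known. The deviations of same-numbered libraries correlated at 0.01 over all tested genes, 0.24 over members and 0.43 over the 61 members above 0 in all 4 libraries. With the replicate block, 5 members were called lower and 2 higher, beside 93 and 31 of all 12491 genes. The higher ones were SNORA5A (adjusted p = 0.0465 from limma) and SNORA10 (0.00913) in place of SNORD64 (0.0612). Over their alternatives the adjusted p of SNORA5A ran from 0.0323 to 0.315 and that of SNORA10 from 0.00913 to 0.501.

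Of 34 named members, 3 changed sign outside the fits that left out a library: SCARNA22 (0.00 with a pseudocount of 0.1, -0.0102 rescaled), SNORA63 ENSG00000200320 (0.13 centred) and SNORA68 (0.0845 centred). Centring raised all genes alike, so values this close to 0 had to change sign. Leaving out a library gave log2 fold changes from -0.29 to 0.33 for SCARNA13, -0.52 to 0.52 for SCARNA22, -0.73 to 0.0266 for SCARNA5, -0.50 to 0.41 for SNORA63 ENSG00000200320, -0.57 to 0.39 for SNORA68, -0.32 to 0.37 for SNORA71A, -0.73 to 0.079 for SNORD10, -0.98 to 1.71 for SNORD3A, -2.12 to 0.31 for SNORD3B-1, -0.55 to 0.0391 for SNORD3B-2 and -3.36 to 4.79 for SNORD8.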

Other observations

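Some snoRNAs known for a part in ribosomal RNA processing had no level to compare. SNORD118 (U8) was at 2.23 FPKM in WT library 1 and listed at 0 in the other 3 libraries. SNORD13 and SNORD22, of 104 and 114 nt, were listed at 0 in all 4 libraries, as were SNORD14A to SNORD14E, of 85 to 91 nt. Of 130 snoRNA and scaRNA entries above 0 in any library, 40 were no members.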
